A study of Mus musculus with 96 samples.

Results

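Small nucleolar RNA (snoRNA) host genes were followed through single mouse embryonic stem (ES) cells: Snhg1, Snhg3, Snhg6, Snhg8, Snhg9, Snhg12 and Gas5. The genes were taken by symbol, with no threshold on a measured value, and all 7 of the 7 had a row among the 23284 gene rows of the count table. The cells were J1 ES cells, kept without feeder cells in medium with serum and leukaemia inhibitory factor (LIF) and taken between passages 12 and 20, per the labels. The series is about gene expression variability in serum. Its 48 cells form a single group with no other condition, so no comparison between conditions was possible, and the spread over cells is the measurement. All came from 1 cell line, no separate cultures are named, and each cell was sequenced on 2 lanes.

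A snoRNA host gene carries snoRNAs inside its introns. When the transcript is spliced the introns are trimmed to snoRNAs, which guide the modification or cleavage of ribosomal RNA, while the spliced exons code for no long protein and are in many cases removed by nonsense-mediated decay, which destroys transcripts that stop translation early. Several of these hosts, Gas5 among them, begin with a run of pyrimidines, the 5′ terminal oligopyrimidine (TOP) tract known from ribosomal protein mRNAs. Box C/D snoRNAs guide methylation of ribosomal RNA, and most box H/ACA snoRNAs guide the conversion of uridine to pseudouridine. By their annotated snoRNAs, Gas5 (8 snoRNAs in RefSeq), Snhg1 (8) and Snhg6 (1) host the box C/D kind, Snhg3 (2), Snhg8 (1) and Snhg9 (1) the box H/ACA kind, and Snhg12 (4) both.

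The sequences at the start sites are given because a TOP tract is the feature these genes may share with ribosomal protein genes. Each line holds 30 bases on either side of the RefSeq start (build GRCm38.p6, 5′ to 3′ on the gene's strand). Capitals mark a run of at least 5 C or T that opens with C within 5 bases of the start, searched on the gene's strand alone.
Snhg1, chr19:8723457-8723516, plus strand: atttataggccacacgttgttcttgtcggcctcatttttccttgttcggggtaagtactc
Gas5, upstream start, chr1:161034571-161034630, plus strand: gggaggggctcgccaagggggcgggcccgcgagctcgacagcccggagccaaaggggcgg
Gas5, downstream start, chr1:161035136-161035195, plus strand: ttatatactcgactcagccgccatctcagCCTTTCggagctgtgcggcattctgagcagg
Snhg3, chr4:132353657-132353716, minus strand: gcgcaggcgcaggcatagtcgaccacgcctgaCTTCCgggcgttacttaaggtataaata
Snhg8, chr3:123508307-123508366, minus strand: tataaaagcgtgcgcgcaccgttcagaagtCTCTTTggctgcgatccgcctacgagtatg
Snhg9, chr17:24719936-24719995, minus strand: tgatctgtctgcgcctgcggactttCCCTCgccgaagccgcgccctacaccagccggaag
Snhg12, chr4:132308648-132308707, plus strand: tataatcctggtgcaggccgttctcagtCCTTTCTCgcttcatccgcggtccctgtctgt
The RefSeq promoter set used here held a start for 6 of the 7 genes (not Snhg6). Of these 6, 5 held such a run in the window around a start. The run of Snhg9 opened 5 bases before the annotated start and lay wholly upstream of it, outside the annotated transcript. That of Snhg3 opened at base 3 of the transcript and not at its first base. Counted by promoter, 5 of the 7 promoters of these genes held a run. Of all 32851 RefSeq promoters 18.4% held a run, as did 43.2% of 74 promoters of ribosomal protein genes. The longest, of 8 bases, was that of Snhg12. Gas5 held a run of 6 at its downstream start and none of that length at the other. The match is a description of letters and does not show which start the cells used. Counts were made on build mm9, and no position of one build was used with the other.

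The cells had from 4408953 to 9767245 reads in genes and from 8039 to 10291 genes with a read. They fell into 2 clusters, of 35 and 13 cells, and none of the 7 host genes was among the 500 genes used to make them. In the larger cluster, of naive pluripotency-like cells, Esrrb and Dppa3 were detected in 34 and 32 of the 35 cells, and the primitive endoderm factors Gata6 and Sox17 in 1 and 0. In the smaller, primitive endoderm-like, Gata6 was detected in 13, Sox17 in 11, Esrrb in 8 and Dppa3 in 6 of the 13 cells, so naive genes were not absent from it. Levels are given as CPM, the counts of a cell scaled to a common library size. Summed over 14 primitive endoderm markers, a cell had 53.4 to 1488 CPM in the larger and 11038 to 44299 CPM in the smaller cluster. Summed over 14 naive markers, it had 1382 to 7633 CPM and 211 to 2486 CPM. By mean CPM, Tbx3 (68.7 against 77.5), Klf4 (92.7 against 108) and Klf5 (39.7 against 57.9) were higher in the smaller cluster. The other naive markers were lower there. Among primitive endoderm markers, Sparc and Lamc1 were detected in all 35 cells of the larger cluster. Their means were 321 and 74.1 CPM in it, and 9837 and 2103 CPM in the smaller. Cdx2 (trophectoderm), T (mesoderm) and 5 genes of 2-cell-like cells were at 0 in every cell. The 4 mesoderm markers together reached 71.9 CPM. Of these, Mixl1 was detected in 4 of the 35 and 2 of the 13 cells. Eomes, also a trophectoderm marker, was detected in 6 of the 35 and 2 of the 13. The 6 trophectoderm markers together reached 566 CPM, with Tfap2c detected in 23 of the 35 cells, and the 6 fibroblast markers together reached 35.9 CPM. No doublet caller was run on these chip-captured cells.

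Which host genes every cell carried was asked first. With each cell thinned to 4408953 reads and a minimum of 5 reads, Snhg1, Snhg3, Snhg9 and Gas5 were detected in 48 of 48 cells (100%, exact Clopper-Pearson 95% interval 92.6% to 100%). Snhg6 and Snhg8 were detected in 47 cells each, and Snhg12 in 44 (91.7%, 80.0% to 97.7%). For comparison, the median gene tested was detected in 31 cells, and 15.3% of genes tested were detected in all. The intervals cover counting error over cells only, and not the loss of RNA before sequencing.

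Among hosts of box C/D snoRNAs, Gas5, a gene named for its accumulation in growth-arrested cells, gave the most reads. Its level over the 48 cells ran from 98.7 CPM through a median of 444 CPM to 1245 CPM. Its lower and upper quartiles were 338 and 654 CPM, and 6 cells lay above 2 times the median. Snhg1, the host of the U22 snoRNA, ran from 11.8 CPM through 84.7 CPM to 271 CPM, with 13 cells above 2 times its median. Snhg6, the host of Snord87, ran from 0 through 34.9 CPM to 158 CPM, with quartiles of 19.4 and 67.9 CPM. Gas5 was thus the steadiest of the 3 by its coefficient of variation, 49.1% against 60.5% for Snhg1 and 80.1% for Snhg6. That measure takes no account of level, and the order differs against genes of like mean. There the log2 variance was 98.2% of the fitted value for Gas5, 40.2% for Snhg1 and 47.5% for Snhg6.

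Among hosts of box H/ACA snoRNAs, Snhg3, whose snoRNAs Snora73a and Snora73b (U17) act in cleavage of the ribosomal RNA precursor, ran from 2.01 CPM through 94.4 CPM to 360 CPM. Snhg8, the host of Snora24, ran from 0 through 24.3 CPM to 106 CPM. Snhg9, the host of Snora78, had few reads in every cell, 12 to 148, but no cell without any. Its level ran from 2.08 CPM through 7.07 CPM to 30.5 CPM, with quartiles of 4.41 and 10.2 CPM. The coefficient of variation was 62.0% for Snhg3, 80.7% for Snhg8 and 65.0% for Snhg9.

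Snhg12, which carries snoRNAs of both kinds, had the widest spread of the 7. It ran from 0 through 16.4 CPM to 134 CPM, with 13 cells above 2 times its median. Its upper quartile was 5.48 times its lower quartile, where Gas5 had 1.93 and Snhg3 had 1.97. A coefficient of variation of 108% went with it.

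**Figure D1:**
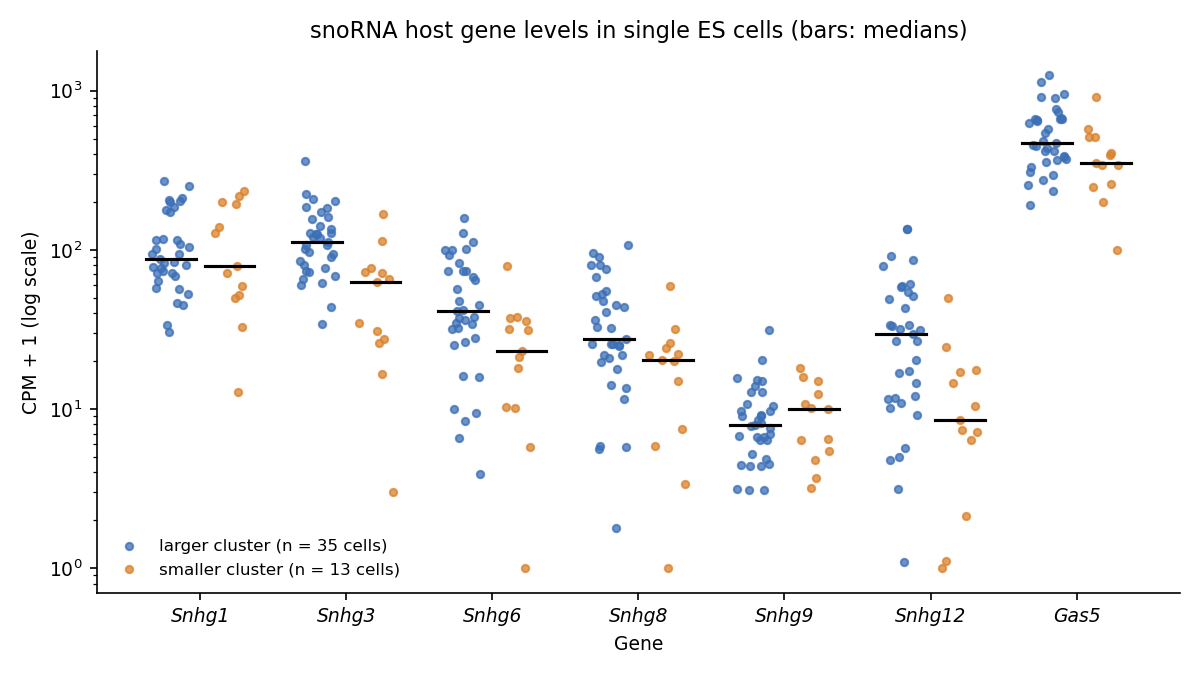
Level of each host gene (CPM + 1, log axis) in every cell. Points are cells, blue for the larger (n = 35) and orange for the smaller cluster (n = 13), and black bars are medians. Gas5 lies highest, from 98.7 to 1245 CPM, and every gene's clusters overlap in range.

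CPM follows transcript length as well as abundance, so levels of different genes were compared per kilobase. With the median length of each gene's GENCODE M21 transcripts, Gas5 stood at 706 CPM per kilobase, Snhg3 at 216, Snhg1 at 141, Snhg6 at 62.5, Snhg8 at 46.0, Snhg9 at 38.6 and Snhg12 at 17.9. This order is not fixed, because isoforms differ in length. With its longest transcript Gas5 stood at 174 CPM per kilobase, and with its shortest at 1283. Snhg1 spanned 31.1 to 272 CPM per kilobase in the same way, which reaches from below Snhg6 to above Snhg3 at the median lengths of those genes. The annotation behind the deposited counts is not given in the sources used here.

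Some cells were at the extreme for several genes. Cell 18, in the larger cluster, held the highest level of 4 genes, namely Snhg3, Snhg8, Snhg9 and Gas5. Cell 3, in the smaller cluster, held the lowest level of Snhg3, Snhg6, Snhg8 and Gas5, yet its Snhg1 (200 CPM) and Snhg12 (48.9 CPM) were above the medians of those genes. Cell 3 was not shallow, with 7480064 reads. It had 8150 genes with a read, near the lowest number in a cell (8039), and the lowest scaling factor of any cell, 0.733. The 7 genes together made up 334 to 2086 CPM of a cell, with a median of 769 CPM, and Gas5 was 28.1% to 79.6% of that sum.

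Whether any host gene varied more than genes of like mean was tested with scran's modelGeneVar, which sets the variance of log2(CPM + 1) over cells against a trend fitted over 11746 genes. Across all genes 239 were called above the trend, 2.03%. Of the 7 host genes 0 were called. An unadjusted p under 0.05 in that direction was found for 5.24% of all genes and for 0 of the 7. With the squared coefficient of variation in place of the variance, 6.22% of all genes were called and 0 of the 7. Shares this small leave a count of 0 of 7 near the background. All 7 lay below the trend, as did 49.4% of all genes tested. So did 80 of 83 ribosomal protein genes, 14 of 17 nonsense-mediated decay factors and 5 of 10 other host genes, so the trait is not particular to the 7. The median variance of the 7 was 47.5% of the trend, where that of all genes was 100.4%.

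Gas5 lay on the trend, with a variance of 0.522 where the trend gave 0.532 (adjusted p = 0.906, Benjamini-Hochberg). Snhg1 had 0.874 (trend 2.18), Snhg3 had 1.30 (2.35), Snhg6 had 2.11 (4.43) and Snhg8 had 2.11 (5.07). Snhg12 had the largest variance of the 7, 3.05, and still lay under its trend of 5.57. Their adjusted p above the trend ran from 0.940 to 0.965 by modelGeneVar.

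Snhg9 stood farthest below. Its variance was 0.604 where the trend gave 6.17, which is 9.78% of the trend, and 0.0511% of all genes tested lay farther below. Read below the trend, modelGeneVar called 0 of 11746 genes (0%), and 283 had an unadjusted p under 0.05. Snhg9 was the single host gene among these, with an unadjusted p of 0.0125 and an adjusted p of 0.914. At its mean, 3.01 on the log2 scale, the trend is near its peak. In GENCODE an exon of Snhg9 overlaps an exon of Rps2, a ribosomal protein gene on the opposite strand that ran from 160 to 1421 CPM. The library kit does not mark strand, so reads of Snhg9 and Rps2 cannot be told apart where they overlap. Exons of Snhg3 likewise overlap those of Rcc1, on the same strand, and exons of Snhg6 those of Mcmdc2, on the opposite strand.

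**Figure D2:**
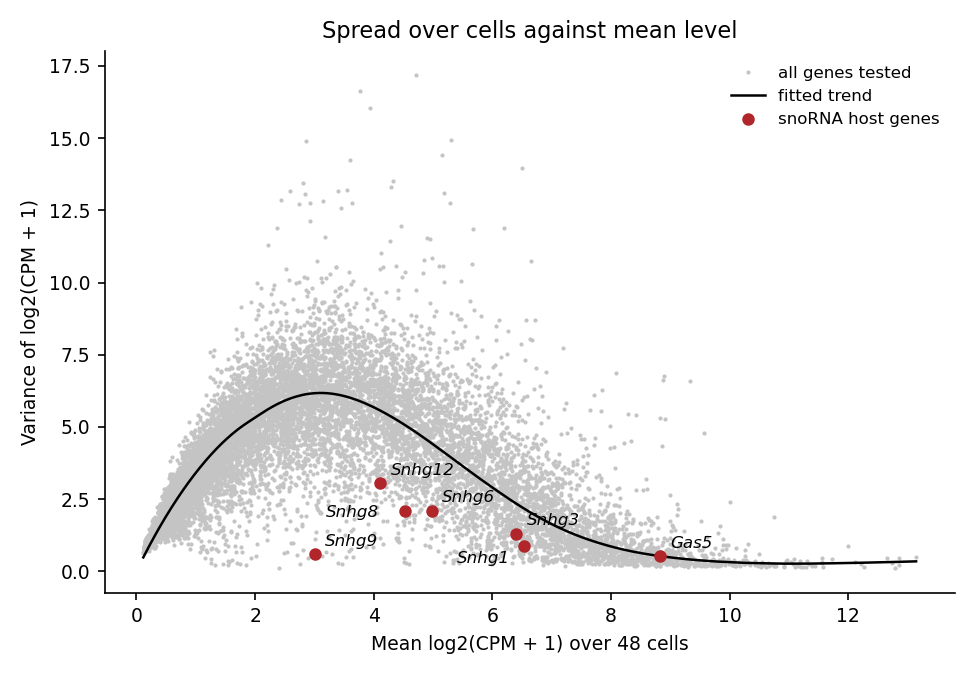
Variance of log2(CPM + 1) over 48 cells against its mean for each gene tested (grey), with the fitted trend (black line) and the 7 host genes (red). All 7 lie below the trend, from Gas5 (0.522, trend 0.532) to Snhg9 (0.604, trend 6.17).

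Lanes showed how much of this spread was counting noise. No host gene's split of reads between lanes departed from sampling noise, with an index (1 under pure sampling noise) from 0.798 for Snhg3 to 1.15 for Gas5. By the chi-square test 0 of 14712 genes were called after adjustment (0%), the 7 included. An unadjusted p under 0.05 was found for 4.74% of all genes and for 0 of the 7. The share of a gene's variance over cells that lanes account for was 5.52% for Snhg9 and from 0.148% (Gas5) to 0.654% (Snhg12) for the other genes. Spread over cells was thus larger than the error of sequencing for every one of the 7, though amplification within a cell is shared by its lanes and was not measured.

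Within the larger cluster alone the picture was alike, with 200 of 11454 genes called (1.75%) and 0 of the 7. Snhg3 had a variance of 0.491 (trend 1.67) in these 35 cells where it had 1.30 in all 48 and 0.817 in all cells but cell 3. Snhg9 had 0.597 (trend 5.99, unadjusted p below the trend = 0.00863, adjusted p = 0.950 by modelGeneVar). Snhg12 kept a variance of 2.52 (trend 4.83).

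How the host genes stood in the 2 clusters is a description, since the cells of a single line are not replicates of a condition. Snhg12 had a median of 28.5 CPM (0.0865 to 134) in the naive pluripotency-like cells and 7.55 CPM (0 to 48.9) in the primitive endoderm-like cells, and 1 of the 13 cells lay above the median of the larger cluster. Snhg3 had 111 CPM (33.3 to 360) and 62.1 CPM (2.01 to 166), with 2 of 13 above. Snhg6 had 40.3 CPM (2.92 to 158) and 22.0 CPM (0 to 78.6), with 1 of 13 above. The ranges overlapped for all 7 genes, as they did for 99.8% of all genes tested.

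As means of log2(CPM + 1), the primitive endoderm-like cells differed by -1.59 for Snhg12 (2.95 ± 1.68, SD, n = 13, against 4.54 ± 1.59, SD, n = 35), by -1.39 for Snhg3, by -1.10 for Snhg6 and by -1.05 for Snhg8. Gas5 differed by -0.51 and Snhg1 by -0.16. Snhg9 was the exception, with a difference of 0.04. The median over the 7 was -1.05, where the median over all genes tested was -0.15 and that over 83 ribosomal protein genes was -0.17. A difference of -1 or lower was found for 4 of the 7, and for 16.5% of all genes. Without cell 3, which had 0 reads of Snhg6 and Snhg8, it was found for 2 of the 7 (Snhg3 and Snhg12) and 15.6% of all genes, and the median over the 7 was -0.74. With a pseudocount of 10 CPM it was found for Snhg3 alone of the 7 and for 5.33% of all genes. The mean was lower in the primitive endoderm-like cells for 6 of the 7 with and without cell 3, and for 56.4% and 55.5% of all genes.

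The relation to ribosomal protein genes was then described within the 35 cells of the larger cluster. The score of a cell was the mean standardised log2 level of 83 ribosomal protein genes, a family with many near-identical pseudogenes, so their counts are uncertain where reads map to several places. All 7 host genes were positively correlated with it, Snhg12 weakly. Spearman's correlation was 0.64 for Snhg3, 0.57 for Snhg9, 0.56 for Gas5, 0.48 for Snhg8, 0.42 for Snhg6, 0.34 for Snhg1 and 0.18 for Snhg12. Pearson's correlation gave 0.66, 0.59, 0.61, 0.51, 0.38, 0.41 and 0.21 in that order. The median of the 7 by Spearman was 0.48, beside -0.02 over 11454 genes and 0.87 for ribosomal protein genes themselves, each left out of its own score. All 7 were positive, as were 46.2% of all genes.

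The Spearman correlation of the score with the number of genes detected was -0.93 and with the scaling factor -0.93, while that with the number of reads was 0.27. With genes detected, Snhg3 had -0.62, Snhg6 -0.56, Gas5 -0.55, Snhg8 -0.54, Snhg9 -0.53, Snhg1 -0.40 and Snhg12 -0.19, where the median gene had 0.02. With genes detected regressed out of both sides, Gas5 had 0.41, Snhg9 0.32, Snhg3 0.29, Snhg12 0.21 and Snhg1 0.09, while Snhg8 (-0.03) and Snhg6 (-0.10) turned negative. With library size alone as the scaling, the median of the 7 was 0.14, and Gas5 (0.49) and Snhg9 (0.33) stood highest. How far cells of few detected genes make up the relation was not tested beyond these values.

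**Figure D3:**
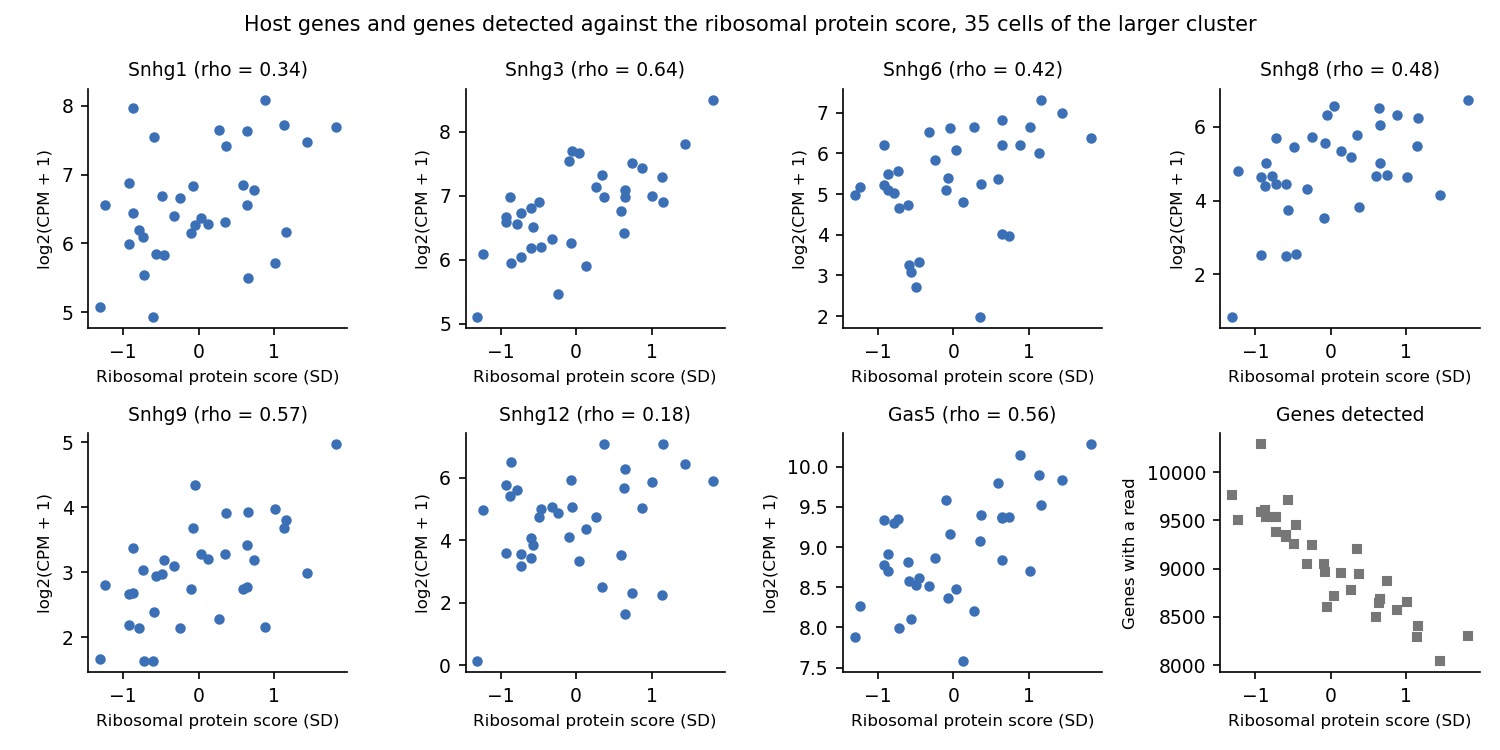
Level of each host gene, as log2(CPM + 1), against the ribosomal protein score (mean of standardised values, in SD) in the 35 cells of the larger cluster, with the number of genes detected in the last panel. Points are cells. Snhg3 follows the score most closely (0.64) and Snhg12 least (0.18), and genes detected falls along it (-0.93).

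**Figure D4:**
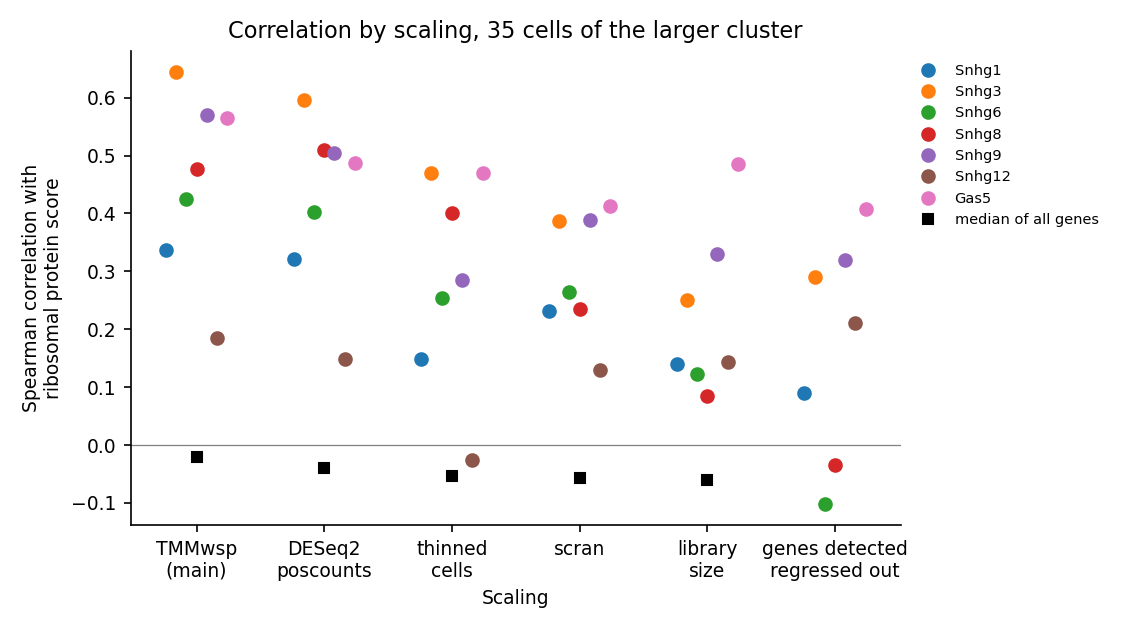
Spearman correlation of each host gene with the ribosomal protein score under 6 treatments of the counts, in the 35 cells of the larger cluster. Coloured points are genes, set side by side within a treatment, and black squares the median of all genes, which was not computed for the last treatment. Gas5 stays between 0.41 and 0.56, while Snhg6 runs from 0.42 to -0.10.

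Without the 2 cells farthest from the median score, Snhg3 had 0.57, Snhg9 0.55, Snhg8 0.51, Gas5 0.48, Snhg6 0.34 and Snhg1 0.25. Snhg12 had 0.06, where it had 0.18 in all 35 cells. Leaving Rps2 out of the score, since it overlaps Snhg9, gave a median of 0.47. In the 13 cells of the smaller cluster the values differed widely. There Snhg1 had 0.35, Gas5 0.27, Snhg9 0.11, Snhg8 0.08, Snhg3 0.02, Snhg12 -0.14 and Snhg6 -0.76.

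Host genes were also positively correlated with each other. In the larger cluster all 21 pairs were above 0, with a mean of 0.31 and a range from 0.03 to 0.60. Snhg3 and Gas5 were the closest pair (Spearman 0.60, Pearson 0.66), followed by Snhg8 and Snhg9 (0.48) and Snhg6 and Snhg8 (0.41). Snhg12 was close to 0 with Snhg8 (0.03) and Snhg3 (0.05), though it reached 0.38 with Snhg6. With library size alone the mean over pairs was 0.17, with 18 of 21 positive, and with genes detected regressed out it was 0.15, with 17 positive. These cells share their depth and scaling, and most values are weak.

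**Figure D5:**
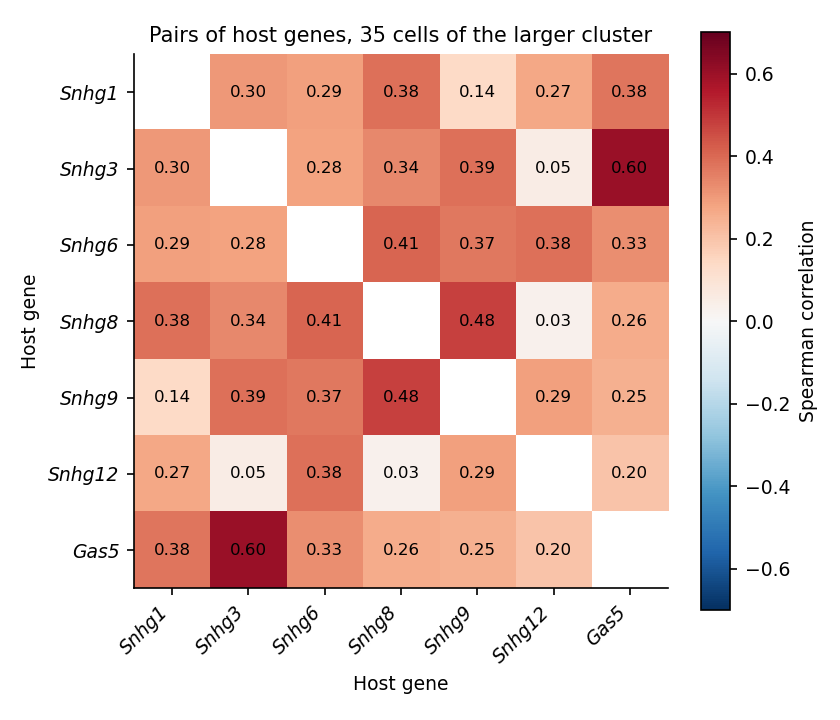
Spearman correlation of log2(CPM + 1) for each pair of host genes over the 35 cells of the larger cluster, with the value written in each square and the colour scale at the right. Snhg3 with Gas5 is highest (0.60) and Snhg8 with Snhg12 lowest (0.03).

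Of all genes, those most like each host by Spearman correlation over the 35 cells differed between hosts. Nearest to Gas5 were Rpl5 (0.65), Rpl10a (0.63) and Rps18 (0.61), all ribosomal protein genes. Nearest to Snhg3 were Rpl21 (0.73), Rps18 (0.73) and Timm13 (0.72), which encodes a chaperone of mitochondrial import. Genes near Snhg9 were Khsrp (0.66) and Cox5b (0.65), and Snhg8 was nearest to Lsm14b (0.72), Hnrnpu (0.68) and Nop16 (0.67). Snhg6 was nearest to Ankrd10 (0.62), Polr2k (0.61) and Snrpe (0.60). Snhg12 was nearest to Atxn2 (0.64), the further host gene Snhg5 (0.59) and Nit2 (0.57). Snhg1 was nearest to Myeov2 (0.70), a row with a date-like name in place of a symbol (0.64) and Eif1 (0.60).

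Ribosomal protein genes made up 37 of the 50 nearest genes of Gas5 and 35 of those of Snhg3. They made up 19 of the 50 for Snhg9, 8 for Snhg8, 6 for Snhg6, 2 for Snhg1 and 0 for Snhg12. Of all genes ranked, 0.727% were ribosomal protein genes. Under this scaling Gas5 and Snhg3 thus stood at one end of the 7 and Snhg12 and Snhg1 at the other. These counts were made with TMMwsp scaling alone, under which the ribosomal protein score followed genes detected (-0.93). With library size alone, Snhg3 had 0.25 with the score, below Gas5 (0.49) and Snhg9 (0.33). With genes detected regressed out it had 0.29, below Gas5 (0.41) and Snhg9 (0.32).

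The count table also holds rows for snoRNAs that lie inside these hosts, and their sequences show what the rows count. In box C/D snoRNAs capitals mark TGATGA near the 5′ end and CTGA near the 3′ end, the core of boxes C and D. In box H/ACA snoRNAs they mark the ACA that ends 3 bases before the 3′ end. Sequences are from GENCODE M21 (GRCm38), on the gene's strand.
Snord47, in Gas5: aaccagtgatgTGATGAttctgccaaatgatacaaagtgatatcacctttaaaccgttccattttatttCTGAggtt
Snord87, in Snhg6: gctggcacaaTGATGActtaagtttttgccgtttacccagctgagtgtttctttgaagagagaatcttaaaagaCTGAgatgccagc
Snord22, in Snhg1: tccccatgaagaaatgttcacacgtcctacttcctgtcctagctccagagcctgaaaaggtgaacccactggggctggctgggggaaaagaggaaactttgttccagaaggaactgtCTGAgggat
Snord99, in Snhg12: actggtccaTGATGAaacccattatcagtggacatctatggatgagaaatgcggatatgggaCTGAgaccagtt
Snora61, in Snhg12: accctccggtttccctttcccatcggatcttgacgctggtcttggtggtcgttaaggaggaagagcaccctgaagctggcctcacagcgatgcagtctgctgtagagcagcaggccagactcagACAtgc
Snora78, in Snhg9: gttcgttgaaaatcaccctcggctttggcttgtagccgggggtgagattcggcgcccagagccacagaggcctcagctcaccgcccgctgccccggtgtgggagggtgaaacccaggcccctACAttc
Mature snoRNAs carry no poly(A) tail. In Snord22 the searched letters of box C were not found near the 5′ end.

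Reads on these rows were few and came from part of the cells. Snord47 had at least 5 reads in 29 of 48 thinned cells and up to 32.5 CPM, and its reads over all cells came to 1.06 per 100 reads of Gas5. Snord22 was detected in 25 cells (3.09 per 100 reads of Snhg1) and Snord87 in 16 (5.70 per 100 reads of Snhg6). In Snhg12, Snora44 and Snora61 were each detected in 15 cells, Snord99 in 13 and Snora16a in 11. Snora78 was detected in 18 cells with 16.5 reads per 100 of Snhg9. Snora24, in Snhg8, had 0 reads in all 48 cells. Over the 35 cells the correlation of a snoRNA row with its host was 0.62 for Snora61, 0.44 for Snord99, 0.41 for Snord22, 0.41 for Snord87 and 0.34 for Snord47. Snora78 had 0.29, and Snora44 (-0.07) and Snora16a (0.08) were near 0. The rows hold many zeros, and reads from a host that has not been spliced can fall on them.

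Other genes of the pathway were counted from lists. Among 18 tested proteins of snoRNA particles, 1 was called above the trend by modelGeneVar, Dkc1, the pseudouridine synthase of box H/ACA particles (variance 1.98, trend 0.735, adjusted p = 0.00116). This fit took in both clusters, and the mean log2 level of Dkc1 differed by -1.68 between the primitive endoderm-like and the naive pluripotency-like cells. Among 23 genes of RNA polymerase I and ribosomal RNA processing 1 was called, the transcription factor gene Mycn (3.48, trend 1.31, adjusted p = 0.00157). Mycn differed by -0.18 between the clusters in the same way. None was called among 83 ribosomal protein genes, 21 other TOP mRNA genes, 17 nonsense-mediated decay factors, 14 decay-sensitive mRNAs, 16 regulators of mTORC1 and TOP translation and 10 other host genes, of which Cwf19l1 codes for a protein. These counts stand beside the 2.03% called over all genes and are near it. Below the trend modelGeneVar called 0 genes of any list.

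Against the ribosomal protein score, the 21 other TOP mRNA genes had a median Spearman correlation of 0.55 and the proteins of snoRNA particles 0.27. The decay-sensitive mRNAs had 0.13, RNA polymerase I and ribosomal RNA processing 0.12, the decay factors 0.12 and the regulators of mTORC1 0.06. The 10 other host genes had a median of -0.06, as did the 9 without the coding gene Cwf19l1 (-0.22), beside 0.48 for the 7. Of those 10, Snhg5 had 0.32 and 1500012F01Rik, named Zfas1 in RefSeq, 0.45. Snhg4 (-0.06), Snhg7 (-0.06) and Snhg11 (-0.08) were near 0. Snhg5 and 1500012F01Rik were detected in 48 cells, and the rest of the 10 in from 18 (Snhg10) to 45 cells (Snhg4). Among host genes the correlation was thus present in some and near 0 in others. No test of that difference, or of the part of detection in it, was made.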

How the data were processed

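Single J1 ES cells were caught on a Fluidigm C1 chip, and their RNA was amplified with a SMARTer kit and made into Nextera XT libraries, which keep no strand. Cells whose amplification succeeded were chosen and brought to equal concentration, per the labels' protocols, so levels are relative within a cell. The authors deposited whole-number read counts per gene and lane, with no normalization. STAR 2.3.1z12, featureCounts, Subread 1.4.5-p1 and mm9 are named, with no role or order, per the submitters' processing notes. The annotation and the treatment of reads on overlapping genes or in several places are not given in the sources used here, which bears on Snhg9, Snhg3, Snhg6 and the ribosomal protein genes. The 96 lane columns were matched by label, and lanes were summed per cell. Counts were scaled with edgeR 4.0.16 (TMMwsp) to CPM and taken as log2(CPM + 1). The variance test was modelGeneVar from scran 1.30.0 (R 4.3.3), one-sided, on genes averaging 10 or more reads a cell, with Benjamini-Hochberg adjustment over all genes tested and a threshold of 0.05. Clusters were made with Ward's method on 5 principal components. Correlations were computed within clusters and carry no p-value. The test was checked on simulated data. P-values measure the scatter of genes around the trend in these cells and do not extend to other cells.

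The members and lists were chosen with earlier results of these data known. Named genes were the 7 members and the 3 genes most correlated with each, with members and snoRNA rows left out of that ranking. Also named were the called members of each list (at most 4), the snoRNAs inside a member and the genes beside it. List medians are also illustrated with other host genes, named after their values were seen. A few genes that this rule names are not reported here. Alternatives were other scalings (library size, scran, DESeq2 1.42.0 poscounts), thinned cells, lane 1 alone, another pseudocount (10 CPM), other count minimums, the larger cluster alone, the squared coefficient of variation and genes detected regressed out.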

Additional observations from a re-analysis of the deposited data

How the results depend on the processing

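None of the 7 host genes was called above the trend, and all 7 lay below it, under each of the 10 alternatives to the variance fit. Of all genes tested, 45.4% to 56.2% lay below it in these fits. Below the trend 0 genes of any kind were called in each of them, so that count says nothing about the 7. Without cell 3, an alternative chosen after seeing the data, none was called above it and all 7 lay below it. Of 11746 genes tested, those called above the trend numbered 159 with a pseudocount of 10 CPM and 731 with the squared coefficient of variation, against 239. The median correlation with the ribosomal protein score, 0.478, was 0.144 with library size alone, 0.264 with scran factors, 0.286 in thinned cells and 0.210 with genes detected regressed out; the cause was not tested. It turned negative for Snhg12 in thinned cells (-0.0261) and, with genes detected regressed out, for Snhg6 (-0.101) and Snhg8 (-0.0342). The mean over pairs, 0.306, fell to 0.172 when cells were scaled by library size and to 0.150 after regression on genes detected; the cause was not tested. The score without Rps2 was also chosen after seeing the data. The sign of each gene's difference between clusters was the same under each alternative run, while with a pseudocount of 10 CPM the median over the 7 was -0.65 against -1.05, and Snhg12 was -0.92 against -1.59. Depth limits Snhg9, with as few as 12 reads in a cell, and the snoRNA rows.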

Other observations

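Genes beside the hosts were read as well, by their place in GENCODE. Slc3a2, an amino acid transporter subunit that lies beside Snhg1 on the opposite strand, was detected in 48 cells, and its Spearman correlation with Snhg1 over the 35 cells of the larger cluster was -0.00252. Rcc1, whose exons overlap those of Snhg3, was detected in 35 cells and had -0.05 with Snhg3. Trnau1ap, beside Snhg12, had 0.08 with it. Rps2 and Ndufb10, which overlap or neighbour Snhg9, had 0.24 and 0.24 with it. Zbtb37, which overlaps Gas5 on the opposite strand without sharing an exon, was detected in 13 cells and had 0.19 with it. Prss12, beside Snhg8, was detected in 3 cells, where Snhg8 itself was detected in 47.

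The 10 other host genes spanned a wide range between clusters. Snhg11 differed by -3.59 on the log2 scale between the primitive endoderm-like and the naive pluripotency-like cells, 2700023E23Rik (Dancr in RefSeq) by -1.18, Snhg4 by -1.13 and 1500012F01Rik by -0.99. Snhg5 differed by -0.38, and Snhg10 was the single one of the 10 with a positive difference, 0.67. Of the proteins of snoRNA particles 17 of 18 had the lower mean in the primitive endoderm-like cells, as had 56.4% of all genes, with a median difference of -0.64, where all genes had -0.15. These values carry no test.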
